A study of Mus musculus with 6 samples.

Results

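Hox genes encode homeodomain transcription factors that give cells their position along the head-to-tail axis. In the mouse they lie in 4 clusters, Hoxa, Hoxb, Hoxc and Hoxd, which arose by duplication of an ancestral cluster, so that genes with the same number in different clusters are paralogs. The genes were chosen by name alone, as every row of the expression table called Hox, a cluster letter and a number. This gave 39 genes, each with 1 row, among 23235 rows. Results are given for 38 of them, and every count, sum, median and ranking of Hox genes is over these 38. Of these, 10 belonged to Hoxa, 10 to Hoxb, 9 to Hoxc and 9 to Hoxd. By paralog number, 11 were anterior (groups 1 to 4), 15 central (groups 5 to 9) and 12 posterior (groups 10 to 13).

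Hox clusters are known for collinearity. Genes at the 3′ end of a cluster are expressed earlier and closer to the head than genes at the 5′ end, and in cultured stem cells they are also the earlier to respond to retinoic acid (RA). RA acts through RAR and RXR nuclear receptors, and response elements for these receptors lie within and beside the clusters.

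RNA was sequenced from E14Tg2a cells, a mouse embryonic stem cell (ESC) line, at passages 37 to 40. The ESCs, 3 samples, were pluripotent cells cultured in serum with leukemia inhibitory factor (LIF). The other 3 samples were cells of the same line grown as monolayers without LIF in 1 μM RA for 48 h to start neuronal differentiation, called neuronal cells (NCs). LIF was therefore absent wherever RA was present, and the effects of the 2 changes cannot be told apart. Both groups came from 1 line, and the RNA of each replicate came from 2 plates. Levels are in FPKM, fragment counts divided by transcript length and by sequencing depth, which allows levels of different genes to be set side by side. The expression table has 1 FPKM value per gene and condition, estimated over the 3 replicates. Values per replicate are not in the table, so no SD is given, and all comparisons are descriptions of 2 values with no test. The change from ESCs to NCs is given as log2((NC FPKM + 1)/(ESC FPKM + 1)), called the log2 ratio, which understates the change of genes with low FPKM. A gene is counted as higher or lower in NCs where its log2 ratio reached 1 or -1, a 2-fold limit. Depth was read from the lowest values of the table, and values at or under those of 3 fragments, 0.0413 FPKM (ESCs) or 0.0428 FPKM (NCs) for 1 kb of transcript, are named as such.

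Markers of the labelled cell types were read before the Hox genes. All 7 pluripotency markers were lower in NCs, among them Pou5f1, which had an ESC level of 832 FPKM and an NC level of 37.1 FPKM. Of 5 neural progenitor markers, 4 were higher, such as Pax6 at 65.2 FPKM in NCs against 3.64 FPKM in ESCs. Of 6 neuron markers, 0 were higher and 2 were lower, including the neuronal tubulin Tubb3 at 7.54 FPKM in NCs against 33.4 FPKM in ESCs. Dcx and Th, which mark young and dopaminergic neurons, had 0.334 and 0.250 FPKM in NCs, and they passed the limit only with a pseudocount of 0.1 FPKM. The neuron markers thus did not bear out the label at 48 h. Among markers of other cells, 1 of 5 mesoderm genes (Meox1), 2 of 5 endoderm genes (Sox17 and Foxa2) and 3 of 4 fibroblast genes were higher in NCs, and the fibroblast list's Thy1 was lower. The summed level of these lists went from 1.97 to 6.70 FPKM for mesoderm (from 1.72 to 1.27 FPKM for the 4 genes other than Meox1), from 7.16 to 18.5 FPKM for endoderm and from 19.4 to 41.8 FPKM for fibroblast genes. No marker of these 3 lists was at 0 in NCs, and their part in the Hox levels was not tested. In bulk RNA, more cells that express a gene and more RNA per cell cannot be told apart.

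Of the 38 Hox genes, 24 were higher in NCs, 0 were lower and 14 lay within the 2-fold limit. Over all rows of the table, 4.62% were higher and 4.19% were lower, so that 52.4% of the rows past a limit were higher, or 71.6% with both columns rescaled to the same sum. The median log2 ratio was 2.73 over the Hox genes and 0.00 over all rows. In NCs, 27 Hox genes had at least 1 FPKM, a level that 54.5% of all rows reached, and 16 had at least 10 FPKM. The share of all rows at 10 FPKM was not counted. In ESCs, 1 of the 38, Hoxc13, reached 1 FPKM, compared with 53.1% of all rows. The median Hox level went from 0.0833 FPKM in ESCs to 5.75 FPKM in NCs. The highest Hox level in NCs was that of Hoxb2, 107 FPKM, which ranked 760 among all rows. By log2 ratio, 9 Hox genes were among the 50 highest rows of the table. These were Hoxb2, Hoxb6, Hoxb1, Hoxb5, Hoxb8, Hoxc5, Hoxa5, Hoxc4 and Hoxb4.

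**Figure D1:**
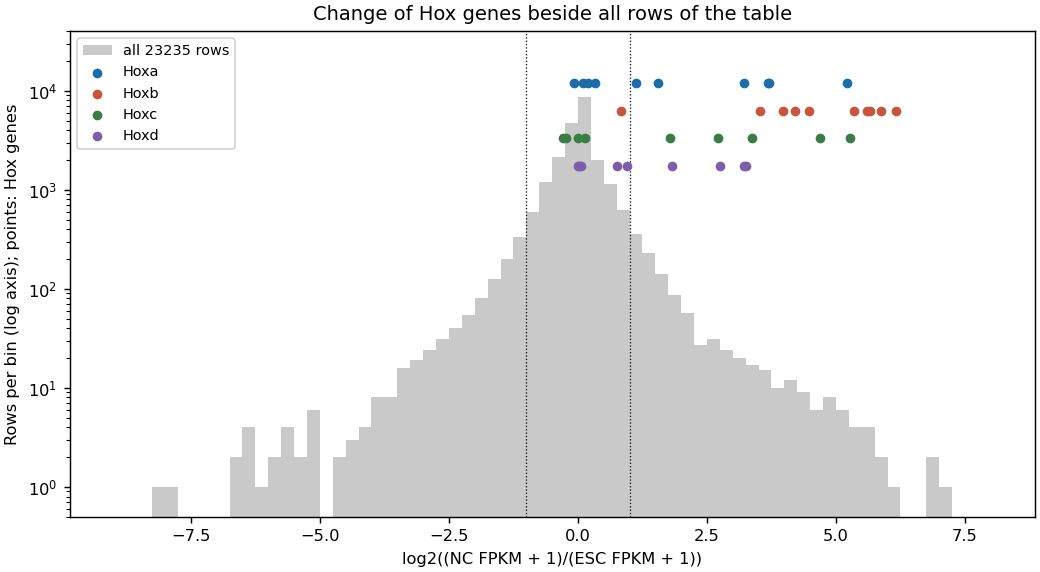
Log2 ratio of NCs over ESCs (horizontal axis) for all 23235 rows as a histogram with a log count axis, and for the 38 Hox genes as points set apart by cluster at heights with no meaning. Dotted lines mark the 2-fold limits, and 9 of 10 Hoxb genes lie to the right of the upper limit, against 6 of 10 Hoxa, 5 of 9 Hoxc and 4 of 9 Hoxd genes.

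Posterior genes stood apart from the others in NC level, which also decides most of their calls. Among groups 1 to 9, the log2 ratio did not fall steadily with paralog number. Log2 ratios in group 5 were 5.22 to 5.59, above the highest in group 3 (4.20) and group 4 (4.70). All 11 anterior genes and 13 of 15 central genes were higher in NCs, but 0 of 12 posterior genes were, beside 4.62% of all rows. With a pseudocount of 1 FPKM, a gene under 1 FPKM in NCs cannot reach the upper limit. Only 2 posterior genes had at least 1 FPKM in NCs. With a pseudocount of 0.1 FPKM, Hoxa13, Hoxb13 and Hoxd13 passed the upper limit. The 2 central genes within the limit were Hoxa9, with a log2 ratio of 0.32, and Hoxd9, with 0.95. Hoxa6, at 1.13, was the gene just past the limit. The median level in NCs was 13.4 FPKM for anterior, 10.2 FPKM for central and 0.0910 FPKM for posterior genes. Without the Hoxc genes, the anterior median, 13.2 FPKM, was below the central one, 14.0 FPKM. The anterior median was 24.1 FPKM without the Hoxa or the Hoxd genes, the central median was 2.68 FPKM without the Hoxb genes, and the posterior median was 0.138 FPKM without the Hoxd genes. Summed over the 38 genes, NCs had 608 FPKM, of which anterior genes gave 49.9%, central genes 49.5% and posterior genes 0.687%. The Hoxb genes gave 66.9% of this sum, Hoxc 15.0%, Hoxa 13.1% and Hoxd 5.06%.

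**Figure D2:**
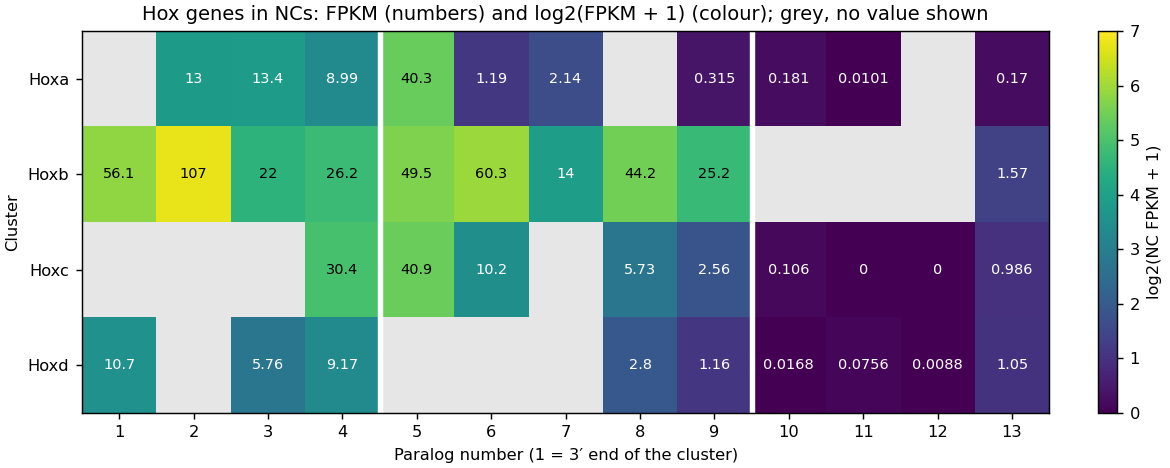
FPKM of each Hox gene in NCs, printed in its cell, with the 4 clusters as rows and paralog numbers 1 to 13 as columns, and colour giving log2(FPKM + 1). Grey cells show no value, and white lines part anterior, central and posterior groups. High levels fill the Hoxb row up to group 9, end after group 5 in Hoxa, and fade from group 6 on in Hoxc.

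Group 1 genes act in the early hindbrain. Hoxb1, which sets the identity of the rhombomere that makes facial motor neurons, had 0.126 FPKM in ESCs but 56.1 FPKM in NCs. Hoxd1, which acts in pain-sensing neurons, had 10.7 FPKM in NCs against 0.220 FPKM in ESCs. The NC level of Hoxb1 was 5.25-fold that of Hoxd1. Their log2 ratios were 5.66 and 3.26.

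Promoters of 8 Hox genes are shown beside their levels. These were chosen after levels and motifs had been seen, and 7 of the 8 hold a motif, compared with 10 of the 22 genes searched. The RefSeq table gave entries for these 22 of the 38 genes. Each sequence is the 250 bases before the gene's start as its RefSeq entry places it in GRCm38.p6, read 5′ to 3′ on the gene's strand. Starts outside these entries were not searched. A search on both strands looked for AGGTCA, the half-site of nuclear receptors such as RAR and RXR, and for TGATNNAT, a form of the site that Hox and Pbx proteins bind together. Matches are in capitals. AGGTCA stood in 14.0% and TGATNNAT in 7.68% of all 32851 windows of that length. Among the 22 Hox genes, 6 held AGGTCA and 4 held TGATNNAT, and no gene held both. A match describes the letters and does not show binding. In group 1, the windows are those of Hoxb1 (chr11:96365508-96365757, plus strand) and Hoxd1 (chr2:74762730-74762979, plus strand). Hoxb1 held TGATNNAT from 162 to 155 bases before its start, and Hoxd1 held neither motif. The Hoxd1 window had 71.6% G and C with 24 CpG, and the Hoxb1 window 59.2% with 7 CpG.
Hoxb1: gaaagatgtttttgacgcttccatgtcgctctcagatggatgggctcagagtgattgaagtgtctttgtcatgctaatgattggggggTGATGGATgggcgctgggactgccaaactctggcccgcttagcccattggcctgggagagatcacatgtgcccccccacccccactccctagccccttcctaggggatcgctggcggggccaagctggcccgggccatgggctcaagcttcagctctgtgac
Hoxd1: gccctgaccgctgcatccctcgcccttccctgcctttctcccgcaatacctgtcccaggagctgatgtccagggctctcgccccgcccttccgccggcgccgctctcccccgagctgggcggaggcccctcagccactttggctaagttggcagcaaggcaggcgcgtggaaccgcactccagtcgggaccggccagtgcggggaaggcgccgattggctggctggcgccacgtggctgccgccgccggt

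Group 2 differed more between clusters than groups 3 and 4. Hoxb2, which acts in hindbrain motor neurons, had an ESC level of 0.508 FPKM and an NC level of 107 FPKM. Its NC level and its log2 ratio, 6.17, were the highest of the Hox genes. With a pseudocount of 0.1 FPKM, its log2 ratio was 7.47, below those of other Hox genes such as Hoxb6 at 8.75. Hoxa2, which selects the identity of the second pharyngeal arch, had 0.0856 FPKM in ESCs but 12.97 FPKM in NCs. The NC level of Hoxb2 was 8.28-fold that of its paralog. TGATNNAT stood in the Hoxa2 window, 111 to 104 bases before the start.

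Group 3 genes act in the caudal hindbrain and pharyngeal organs. Hoxb3 had 22.0 FPKM in NCs against 0.247 FPKM in ESCs. Hoxa3, which is needed for the thymus and parathyroid, had an ESC level of 0.109 FPKM and an NC level of 13.4 FPKM. Hoxd3 had 0.00442 FPKM in ESCs, under the level that 3 fragments would give, and 5.76 FPKM in NCs. The 3 levels in NCs spanned 3.82-fold, in the order Hoxb3, Hoxa3, Hoxd3. The annotated spans of Hoxa3 and Hoxd3 reach over neighbouring genes of the same strand (Hoxa4 to Hoxa6, and Hoxd4), so their reads could be shared with those genes.

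Group 4 is present in all 4 clusters. In ESCs, Hoxb4 had 0.217 FPKM, Hoxc4 0.210 FPKM, Hoxd4 0.0916 FPKM and Hoxa4 0.0657 FPKM. In NCs, Hoxc4 led with 30.4 FPKM, followed by Hoxb4, known for expanding blood stem cells, with 26.2 FPKM. Hoxd4 had 9.17 FPKM and Hoxa4 had 8.99 FPKM. The levels thus formed 2 pairs, and the highest was 3.38-fold the lowest. The windows of 3 group 4 genes are shown, chosen because they held AGGTCA, read here as TGACCT on the gene's strand. Hoxa4 was not searched. They are Hoxb4 (chr11:96318017-96318266, plus strand), Hoxc4 (chr15:103034145-103034394, plus strand) and Hoxd4 (chr2:74721728-74721977, plus strand). The Hoxc4 and Hoxd4 windows lie inside the annotated spans of these genes, which begin at chr15:103018934 and chr2:74711929. The match began 81 bases before the RefSeq start in Hoxb4, 146 in Hoxc4 and 145 in Hoxd4. Hoxd3 held it too, from 161 to 156 bases before its start. The windows differed in base composition, with 58.0% G and C in Hoxb4, 62.0% in Hoxc4 and 40.4% in Hoxd4.
Hoxb4: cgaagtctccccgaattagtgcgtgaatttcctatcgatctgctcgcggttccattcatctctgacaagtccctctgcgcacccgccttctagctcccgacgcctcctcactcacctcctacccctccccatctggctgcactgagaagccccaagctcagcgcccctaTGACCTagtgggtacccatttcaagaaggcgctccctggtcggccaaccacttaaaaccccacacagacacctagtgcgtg
Hoxc4: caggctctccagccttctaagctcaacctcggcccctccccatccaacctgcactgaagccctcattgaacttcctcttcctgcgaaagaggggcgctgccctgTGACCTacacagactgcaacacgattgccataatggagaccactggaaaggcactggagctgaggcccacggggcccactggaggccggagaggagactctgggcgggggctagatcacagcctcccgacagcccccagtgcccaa
Hoxd4: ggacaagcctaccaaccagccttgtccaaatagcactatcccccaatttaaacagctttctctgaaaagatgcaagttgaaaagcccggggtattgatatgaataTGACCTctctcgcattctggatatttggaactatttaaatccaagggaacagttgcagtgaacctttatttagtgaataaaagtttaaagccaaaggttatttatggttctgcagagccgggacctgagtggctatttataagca

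Among groups whose members were all above the level of 3 fragments in NCs, group 5 was the one in which the clusters came closest. Hoxb5 had 49.5 FPKM in NCs, Hoxc5 had 40.9 FPKM and Hoxa5, which acts in lung and trachea formation, had 40.3 FPKM. The highest was 1.23-fold the lowest, and in ESCs the 3 genes had 0.0465, 0.0810 and 0.113 FPKM. Their log2 ratios were 5.59, 5.28 and 5.22. The annotated span of Hoxc5 covers Hoxc6, Hoxc8 and Hoxc9 and part of Hoxc10 on the same strand, and that of Hoxa5 lies within Hoxa3.

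In group 6, 1 paralog number further, the clusters were far apart. Hoxb6 had 60.3 FPKM in NCs. Hoxc6 had 10.2 FPKM. Hoxa6 had 1.19 FPKM, so that Hoxb6 was 50.8-fold higher. All 3 had low values in ESCs, 0.0403 FPKM for Hoxb6, 0.0763 FPKM for Hoxc6 and 0 for Hoxa6. These genes are markers of the thoracic region in the embryo.

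Group 7 has members in Hoxa and Hoxb. Hoxb7 had 0.299 FPKM in ESCs but 14.0 FPKM in NCs, the lowest NC level among Hoxb1 to Hoxb9. Hoxa7 had 2.14 FPKM in NCs against 0.0670 FPKM in ESCs. The ratio of the 2 NC levels was 6.55.

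Group 8 genes act in brachial and thoracic motor neurons, where Hoxc8 sets motor pool identity. Hoxb8 had an ESC level of 0.109 FPKM and an NC level of 44.2 FPKM. Hoxc8 had 0.0229 FPKM in ESCs but 5.73 FPKM in NCs, and Hoxd8 had 2.80 FPKM in NCs against 0.0666 FPKM in ESCs. Hoxb8 was 15.8-fold higher than Hoxd8 in NCs. The windows of these 2 genes, the highest and lowest of the group, are Hoxb8 (chr11:96281655-96281904, plus strand) and Hoxd8 (chr2:74704365-74704614, plus strand). Hoxb8 held TGATNNAT from 11 to 4 bases before its start, as ATTGATCA on its own strand, and Hoxd8 held AGGTCA from 135 to 130 bases before its start. Both windows had 44.4% G and C.
Hoxb8: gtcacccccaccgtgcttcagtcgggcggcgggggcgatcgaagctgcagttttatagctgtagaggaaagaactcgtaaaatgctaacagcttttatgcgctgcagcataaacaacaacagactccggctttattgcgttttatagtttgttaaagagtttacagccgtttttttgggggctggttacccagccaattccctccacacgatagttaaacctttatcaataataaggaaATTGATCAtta
Hoxd8: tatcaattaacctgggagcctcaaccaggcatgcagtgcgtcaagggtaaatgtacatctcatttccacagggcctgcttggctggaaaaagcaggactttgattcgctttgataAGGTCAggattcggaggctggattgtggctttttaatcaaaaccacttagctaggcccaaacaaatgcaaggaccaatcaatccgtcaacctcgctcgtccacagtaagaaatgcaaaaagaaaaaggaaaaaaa

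Group 9 had the largest ratio between its highest and lowest NC level, among groups whose members were all above the level of 3 fragments. On the log2(FPKM + 1) scale, the difference was larger in group 6, 4.81 against 4.32 in group 9. Hoxb9 had an ESC level of 0.665 FPKM and an NC level of 25.2 FPKM. Hoxc9, which sets thoracic motor neuron identity, had 0.0290 FPKM in ESCs but 2.56 FPKM in NCs. Hoxd9 had 1.16 FPKM in NCs against 0.120 FPKM in ESCs. Hoxa9, known from leukemia, had an ESC level of 0.0511 FPKM and an NC level of 0.315 FPKM. Hoxb9 was thus 80.0-fold higher than Hoxa9 in NCs, and Hoxb9 and Hoxc9 were past the 2-fold limit against their ESC values. Hoxd9 passed the limit when both columns were rescaled to the same sum or with a pseudocount of 0.1 FPKM, and Hoxa9 with the latter.

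**Figure D3:**
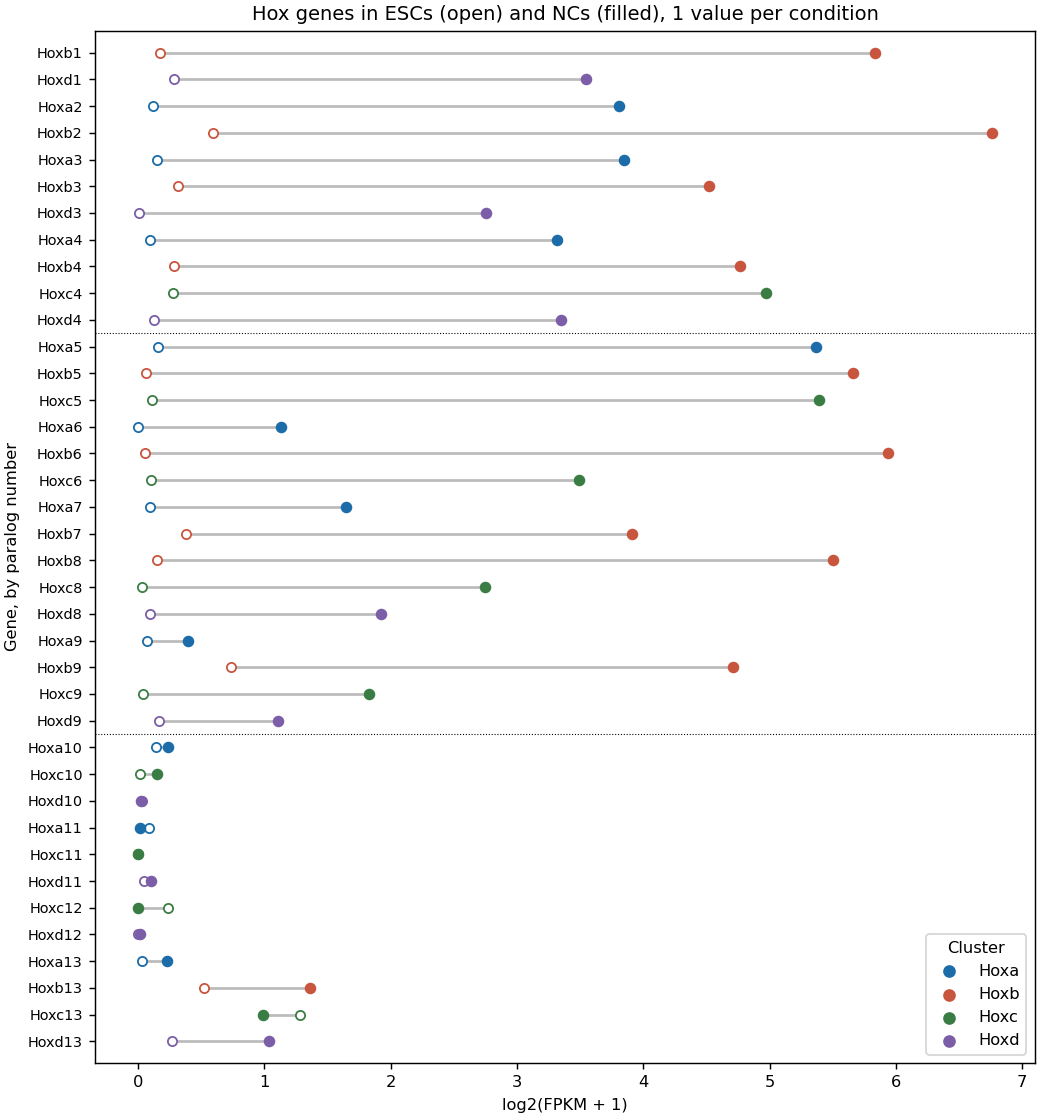
Log2(FPKM + 1) of each of the 38 Hox genes in ESCs (open circles) and NCs (filled circles), ordered by paralog number from top to bottom and coloured by cluster, with 1 value per condition. Dotted lines part the anterior, central and posterior groups. The grey bars are long in groups 1 to 5, of mixed length in groups 6 to 9, and short from group 10 on.

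Groups 10 to 12 act in the lumbar and sacral region and in the distal limb, and all 8 genes stayed below 0.2 FPKM in both conditions. Hoxa10 had 0.181 FPKM in NCs against 0.104 FPKM in ESCs, and Hoxc10 had 0.106 against 0.0101 FPKM. Hoxd11, which shapes the forearm with its paralog Hoxa11, had 0.0756 against 0.0340 FPKM. Hoxd10, Hoxa11, Hoxc11, Hoxc12 and Hoxd12 lay at or under 3 fragments in NCs, at 0.0168, 0.0101, 0, 0 and 0.00883 FPKM, and no fold is given for them. With 1 fragment read from the most common low value in NCs instead of the largest step, Hoxd10 was above 3 fragments (0.0135 FPKM) and the other four were not. In ESCs they had 0.0197, 0.0622, 0, 0.177 and 0 FPKM. The Hoxd10 window is shown as a contrast to those of group 4, since it too held AGGTCA, as TGACCT 69 to 64 bases before the start (chr2:74691641-74691890, plus strand). The genes whose windows held this motif thus ranged from 0.0168 FPKM for Hoxd10 to 30.4 FPKM for Hoxc4 in NCs. Among the genes with TGATNNAT, levels in NCs ranged from 0.0756 FPKM for Hoxd11 to 56.1 FPKM for Hoxb1.
Hoxd10: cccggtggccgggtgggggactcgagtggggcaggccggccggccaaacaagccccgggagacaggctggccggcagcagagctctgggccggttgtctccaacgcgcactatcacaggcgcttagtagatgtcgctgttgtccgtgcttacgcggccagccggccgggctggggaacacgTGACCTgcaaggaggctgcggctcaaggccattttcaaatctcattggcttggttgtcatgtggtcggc

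Group 13, the last at the 5′ end, was higher than groups 10 to 12 in its sum. The 4 genes added up to 3.78 FPKM in NCs, compared with 0.304 FPKM for group 10, 0.0857 FPKM for group 11 and 0.00883 FPKM for group 12. Hoxb13, which acts in the prostate and tail, had 1.57 FPKM in NCs against 0.436 FPKM in ESCs. Hoxd13, which shapes the digits, had an ESC level of 0.205 FPKM and an NC level of 1.05 FPKM. Hoxa13, its partner in digit formation, had 0.0231 FPKM in ESCs but 0.1695 FPKM in NCs. Hoxc13, which acts in hair and nails, had 0.986 FPKM in NCs against 1.43 FPKM in ESCs. It was the Hox gene with the highest level in ESCs and the lowest log2 ratio, -0.29. With rescaled columns, Hoxc12 was lower, at -0.298 against -0.152 for Hoxc13. With a pseudocount of 0.1 FPKM, Hoxc12 (-1.47) and Hoxa11 (-0.56) were both lower than Hoxc13 (-0.49). The log2 ratios of Hoxb13 and Hoxd13 were 0.84 and 0.77, within the limit. Both passed it with rescaled columns, and Hoxa13, Hoxb13 and Hoxd13 passed it with a pseudocount of 0.1 FPKM. Hoxc12, with 0.177 FPKM in ESCs and 0 in NCs, was past the lower limit with that pseudocount.

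Side by side over the 8 paralog groups from 2 to 9, Hoxb had the highest NC level in 7 groups, Hoxc in 1 (group 4), and Hoxa and Hoxd in 0. Not every cluster has a member in each group, and groups 2 and 7 hold only Hoxa and Hoxb genes. By log2 ratio, Hoxb led in 7 groups and Hoxc in 1. ESC levels in groups 1 to 9 were at most 0.665 FPKM, so this ratio largely follows the NC level. With a pseudocount of 0.1 FPKM, Hoxa3, at 6.01, was above Hoxb3, at 5.99. Between Hoxa and Hoxb, which share 7 of these groups, the Hoxb gene was higher in 7. The median of log2((Hoxa FPKM + 1)/(Hoxb FPKM + 1)) over those 7 groups was -2.26 in NCs, and it ranged from -4.81 at group 6 to -0.29 at group 5. Hoxc was higher than Hoxa in 4 of 4 shared groups, and the closest pair was Hoxc5 and Hoxa5. Against Hoxd, Hoxb was higher in 5 of 5 shared groups, group 1 included, and Hoxc in 3 of 3. Hoxa was higher than Hoxd in 1 of 3 groups from 2 to 9. Hoxb was higher than Hoxc in 4 of 5 shared groups, the exception being group 4. Medians within a zone cover different paralog numbers in each cluster. For the central genes, the median NC level was 44.2 FPKM in Hoxb, 7.97 FPKM in Hoxc, 1.98 FPKM in Hoxd and 1.66 FPKM in Hoxa. For the anterior genes, the medians were 41.2 FPKM in Hoxb, 12.97 FPKM in Hoxa and 9.17 FPKM in Hoxd, and the single anterior Hoxc gene had 30.4 FPKM. Genes of a cluster are neighbours and are not replicates of it.

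Along the chromosome, each cluster reads from its low-numbered 3′ end to its 5′ end. In GRCm38 (mm10), Hoxa2 to Hoxa13 span chr6:52162417-52260880 on the minus strand, the Hoxb genes chr11:96194316-96368256 on the plus strand, the Hoxc genes chr15:102921103-103036852 on the plus strand and the Hoxd genes chr2:74668310-74765142 on the plus strand. Spearman's rho between paralog number and NC level was -0.89 over 10 Hoxa genes, -0.59 over 10 Hoxb genes, -0.88 over 9 Hoxc genes and -0.87 over 9 Hoxd genes. These are descriptions across genes of the same pooled libraries, and genes that overlap can share reads. Over genes with at least 1 FPKM in NCs, rho was -0.54 for 6 Hoxa genes, -0.90 for 5 Hoxc genes and -0.94 for 6 Hoxd genes, and all 10 Hoxb genes reached that level.

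The levels did not fall evenly. In Hoxa, the largest fall on the log2(FPKM + 1) scale was from Hoxa5 to Hoxa6, 34.0-fold in FPKM between genes whose 3′ ends are 4.53 kb apart. A rise from 8.99 FPKM at Hoxa4 to 40.3 FPKM at Hoxa5 came just before it. In Hoxb, levels went up and down between 14.0 and 107 FPKM from Hoxb1 to Hoxb9 with no steady fall. Of the 9 steps between Hoxb neighbours, 4 were downward and 5 upward. The largest downward step was the last, 16.0-fold from Hoxb9 to Hoxb13 across 79.1 kb. In Hoxc, the largest fall on that scale was from Hoxc5 to Hoxc6, 4.01-fold over 5.55 kb, and the level then went down at each step to Hoxc11. From Hoxc9 to Hoxc10, the fall was 24.0-fold in FPKM. In Hoxd, the largest fall on the log2(FPKM + 1) scale was from Hoxd4 to Hoxd8, 3.28-fold over 21.2 kb. Hoxd9 had 1.16 FPKM, and its neighbour Hoxd10, 5.10 kb away, had 0.0168 FPKM.

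**Figure D4:**
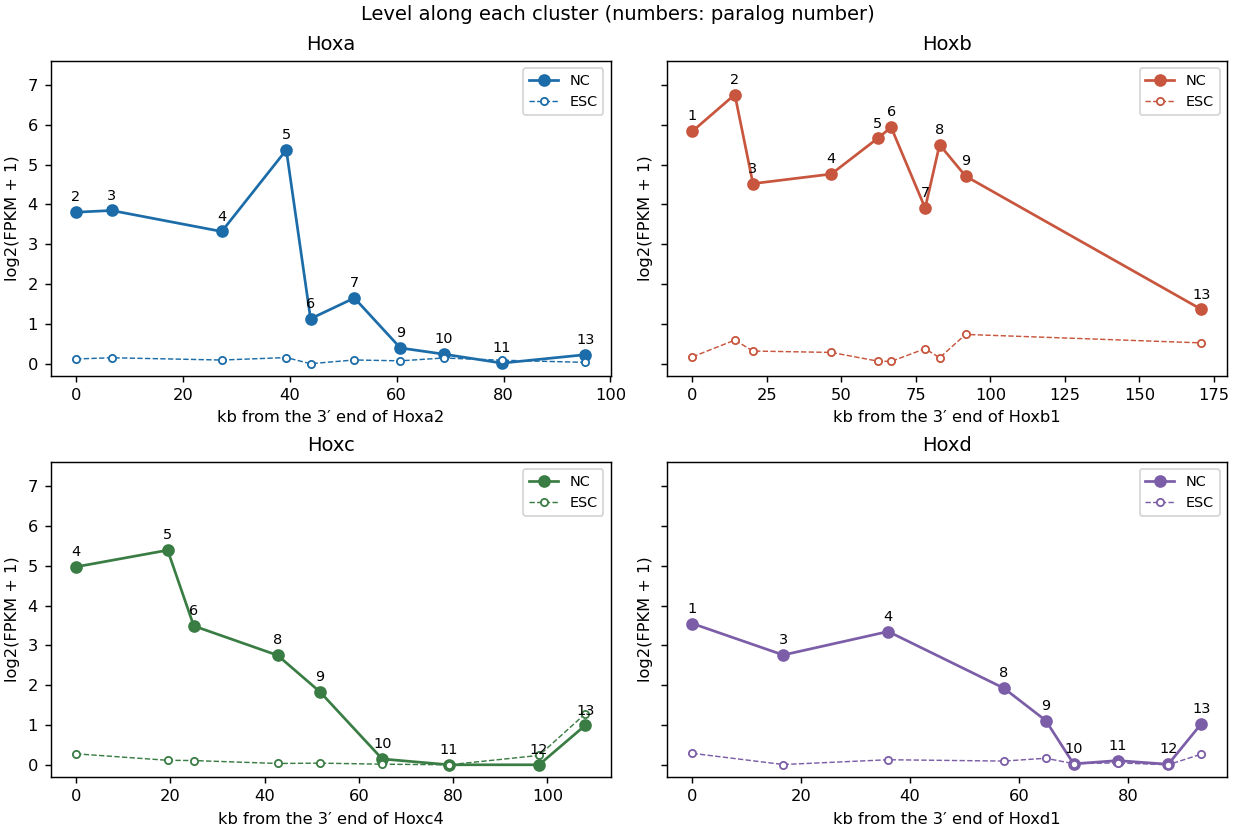
Log2(FPKM + 1) of the Hox genes in NCs (filled circles, solid line) and ESCs (open circles, dashed line) against the distance in kb between 3′ ends, measured from the lowest-numbered gene shown of each cluster, with paralog numbers above the points. The drop comes between genes 5 and 6 in Hoxa and across the gap between genes 9 and 13 in Hoxb, while Hoxc and Hoxd slope down, and gene 13 lies above genes 11 and 12 in Hoxc and Hoxd.

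In ESCs, the Hox genes had low but unequal levels. Cluster medians were 0.232 FPKM for Hoxb, 0.0763 FPKM for Hoxc, 0.0666 FPKM for Hoxd and 0.0663 FPKM for Hoxa. Among the 38 genes, the highest levels were those of Hoxc13 (1.43 FPKM), Hoxb9 (0.665 FPKM), Hoxb2 (0.508 FPKM) and Hoxb13 (0.436 FPKM). They came from anterior, central and posterior groups alike. Hoxa6, Hoxc11 and Hoxd12 were listed at 0, and Hoxd3, Hoxc10 and Hoxd10 were at or under 3 fragments.

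Each cluster also harbours microRNA genes. Those of the miR-10 family are paralogs of each other, as are those of the miR-196 family. Mature sequences from RefSeq are shown for the miR-10 and miR-196 families, because members from different clusters share the seed, bases 2 to 8, in capitals. The miR-10a and miR-10b genes lie in Hoxb and Hoxd, and those of miR-196a and miR-196b in Hoxb, Hoxc and Hoxa.
mmu-miR-10a-5p: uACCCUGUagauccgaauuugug
mmu-miR-10b-5p: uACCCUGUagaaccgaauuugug
mmu-miR-196a-5p: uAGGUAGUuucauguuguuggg
mmu-miR-196b-5p: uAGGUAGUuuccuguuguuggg

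Of 6 rows for microRNA genes within the cluster spans, 5 were listed at 0 in both conditions. They include Mir10a, which lies next to Hoxb4, and Mir10b, within the span of Hoxd4. The exception was Mir196a-1, whose annotated gene is 102 bases long, with an ESC level of 80.8 FPKM and an NC level of 7.31 FPKM. A gene of that length is shorter than usual library fragments, and libraries for mRNA do not measure mature microRNAs. Of the other noncoding rows, Hotair, in Hoxc, had 0.00591 FPKM (ESCs) and 0.00352 FPKM (NCs), and Gm53, in Hoxb between Hoxb13 and Hoxb9, had 1.70 FPKM in NCs against 2.98 FPKM in ESCs. Gm53 was within the limit, while its neighbour Hoxb9 was past the upper limit.

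Genes of the same pathway were read from fixed lists. Of 6 RA receptor genes, 2 were higher in NCs and 0 lower. Rarb, itself a target of RA, had 25.5 FPKM in NCs against 0.128 FPKM in ESCs, and Rxra had 19.2 against 5.17 FPKM. Rara, with 18.0 against 21.2 FPKM, Rarg, with 17.0 against 33.5 FPKM, and Rxrb, with 33.6 against 31.4 FPKM, were within the limit and were present in both conditions. Of 4 upstream regulators of Hox genes, 1 was higher and 0 lower. Cdx1, a homeobox gene that acts on central Hox genes, had an ESC level of 0.598 FPKM and an NC level of 3.58 FPKM. Cdx2, Cdx4 and Egr2 had 0.353, 0.0730 and 0.0469 FPKM in NCs, against 0.274, 0.635 and 0.129 FPKM in ESCs. Cdx4 was past the lower limit with a pseudocount of 0.1 FPKM.

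Hox proteins bind DNA together with cofactors of the Meis, Pbx and Pknox families. Of 8 cofactor genes, 6 were higher in NCs and 0 lower, with a median log2 ratio of 1.52. Meis1 had 47.4 FPKM in NCs against 0.805 FPKM in ESCs, and Meis2 had 50.7 against 0.649 FPKM. Pbx2, Pbx3, Meis3 and Pknox2 were the other four that were higher, at 67.0, 15.1, 9.77 and 13.4 FPKM in NCs. Pbx4 and Pknox1 were within the limit, at 3.40 and 6.17 FPKM in NCs.

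Most listed relatives and neighbours of the Hox genes were within the limit. Of 5 genes listed as paraHox and Evx, which are homeobox genes close to Hox in sequence, 0 were higher, beside 4.62% of all rows. All 5 were under 1 FPKM in both conditions, so none could pass the upper limit with a pseudocount of 1 FPKM. The highest in NCs was Pdx1 at 0.394 FPKM. The Cdx genes, also paraHox genes, were listed as upstream regulators instead. Among them, Cdx1 was higher in NCs, at 3.58 against 0.598 FPKM, and Cdx2 and Cdx4 were within the limit. With a pseudocount of 0.1 FPKM, Pdx1 was past the upper and Gsx2 past the lower limit. Evx1 and Evx2, which lie beyond the 5′ ends of Hoxa and Hoxd, had 0.0155 and 0.00581 FPKM. Of 8 genes that flank the clusters, 1 was higher and 2 were lower. Skap1, 96.3 kb from Hoxb1, had 2.69 FPKM in NCs against 0.553 FPKM in ESCs. Ttll6, 28.9 kb beyond Hoxb13, had 0.611 against 3.26 FPKM, and Hibadh, beyond Hoxa, had 30.0 against 63.7 FPKM. With rescaled columns, Hibadh was within the limit. Mtx2, 60.7 kb from Hoxd1, had an ESC level of 39.4 FPKM and an NC level of 55.4 FPKM, both above every Hoxd gene. The median log2 ratio of the 8 flanking genes was 0.29, compared with 2.73 for the Hox genes.

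**Figure D5:**
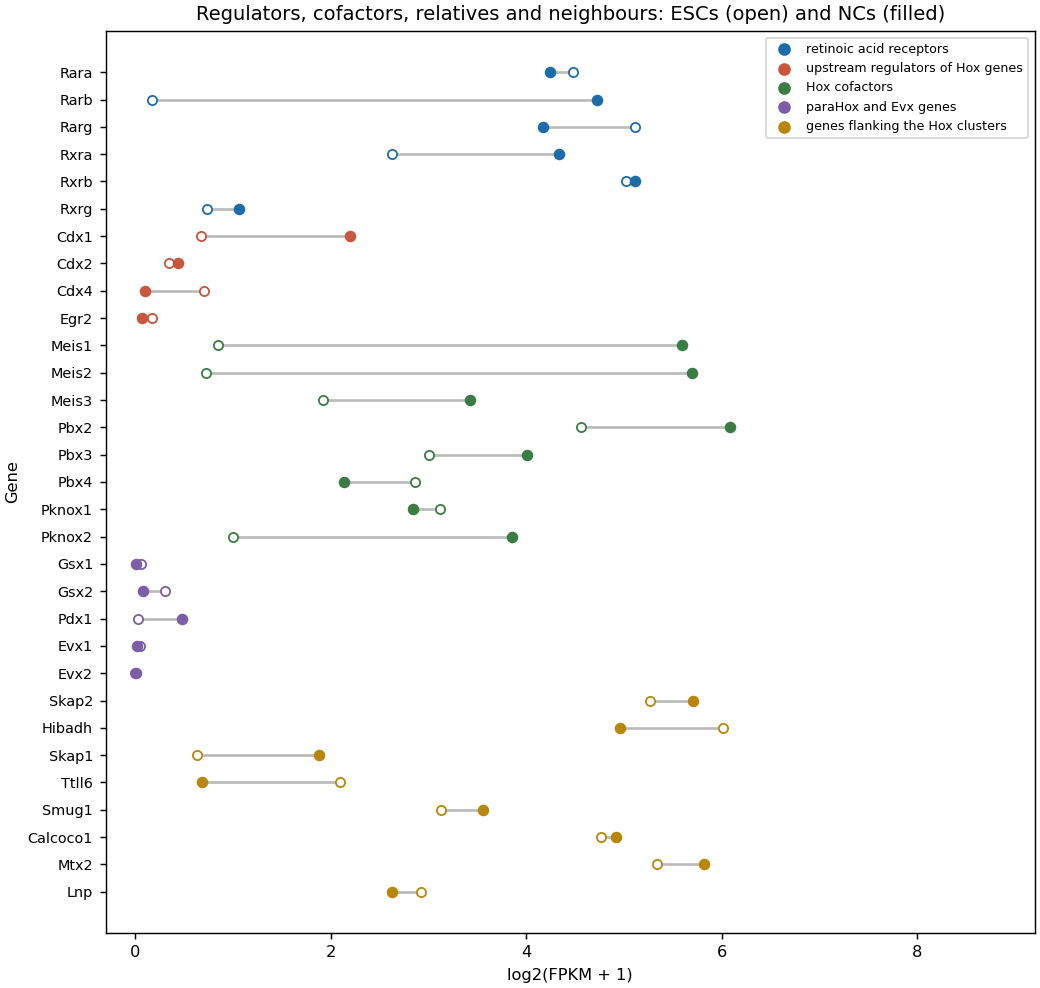
Log2(FPKM + 1) in ESCs (open circles) and NCs (filled circles) of RA receptors, upstream regulators, Hox cofactors, paraHox and Evx genes, and genes flanking the clusters, with 1 value per condition. Long bars to the right are seen for Rarb, Meis1, Meis2 and Pknox2. The genes listed as paraHox and Evx stay near 0, and the Cdx genes are shown among the upstream regulators.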

How the data were processed

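RNA was measured in 3 ESC and 3 NC samples, grouped by their labels. The authors made TruSeq libraries, sequenced them on a HiSeq 2000, aligned the reads to mm10 with TopHat 2.0.8 and Bowtie 2.1.0, used Cufflinks 2.0.2 and then Cuffmerge to assemble transcripts, and ran Cuffdiff on both conditions. As deposited by the authors, FPKM come as 1 value for a gene in ESCs and 1 in NCs. The heading of the NC column reads FPK and was taken as FPKM. The table also holds the authors' own log2 fold changes, test statistics, p-values and q-values, which were not used. The Cuffdiff version, its normalization option and the strandedness of the libraries are not given in the sources used here. Of the 38 members described, 13 overlap an antisense gene and 11 overlap another member on the same strand, and their reads may not be separable.

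Members were matched by name. Some results are not reported here, and the genes they concern enter no count of members or lists. The members and the gene lists were chosen with earlier results of these data known. The genes named are all members, all genes of the lists (RA receptors, upstream regulators, cofactors, paraHox and Evx genes, flanking genes and cell type markers) and the rows within a cluster span. Log2 ratios used a pseudocount of 1 FPKM and no filter. No test could be made on 1 value per condition. Total fragments per sample are unknown. The value of 1 fragment was read from low values of 3377 genes with a single transcript, assuming fragments of 200 bases, as the largest step under 0.015 FPKM at 1 kb that held at least 20 genes. The fullest step was the same in ESCs but lower in NCs, 0.00725 against 0.01425 FPKM. A floor of 3 fragments came to 0.0413 FPKM (ESCs) or 0.0428 FPKM (NCs) at 1 kb, scaled to each member's longest transcript less 200 bases. Lengths of 1 kb here exclude the 200 bases of a fragment. The step used for this floor was chosen after seeing the data, and the floor covers counting error only. Positions came from GENCODE M21 on GRCm38, and sequences from RefSeq on GRCm38.p6. The computation was tested on simulated data. Changes were planted there only in genes well above 1 FPKM, so changes of genes with low FPKM were not covered. The scripts ran in Python 3.11.15 (pandas 2.3.3, numpy 2.4.6, scipy 1.17.1), with figures from matplotlib 3.10.9. Alternatives were another scaling, pseudocount, centring, fold limit, level limits, a filter on low values, distinct gene names, and each cluster left out.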

Additional observations from a re-analysis of the deposited data

How the results depend on the processing

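No replicate could be left out. No paired analysis was possible because the table holds 1 value per condition. The number of Hox genes higher in NCs was 24 as reported, 27 with both columns rescaled to the same sum, 29 with a pseudocount of 0.1 FPKM and 24 after centring, and 0 Hox genes were lower except 1, Hoxc12, with that pseudocount. The shares of all rows called higher under these 3 alternatives were 8.03%, 9.65% and 4.96%. Rescaling moved the median log2 ratio of rows with at least 1 FPKM in both conditions from -0.04 to 0.23, and the share of calls that were higher from 52.4% to 71.6%, since the FPKM sum to 770592 in ESCs and 628679 in NCs. Rescaling and centring each turned the sign of Hoxd10. Centring also moved Hoxc11, at 0 FPKM in both conditions, off its log2 ratio of 0. Both genes were at or under 3 fragments in NCs as reported. With 1 fragment read from the fullest step, an alternative chosen after seeing the data, 4 Hox genes instead of 5 were at or under 3 fragments in NCs. A 4-fold limit left 20 Hox genes, a filter of 1 FPKM in either condition 24 and distinct names 24. In NCs, 28 Hox genes reached 0.5 FPKM and 20 reached 5 FPKM. Shares of all rows were not counted for the 4-fold limit or for these levels. The Hox median log2 ratio was 3.32 with rescaled columns and 5.06 with a pseudocount of 0.1 FPKM.

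Leaving out a cluster moved the medians in NCs. The anterior median was 24.1 FPKM without Hoxa or Hoxd, 10.7 FPKM without Hoxb and 13.2 FPKM without Hoxc. The central median was 14.0 FPKM without Hoxa, Hoxc or Hoxd and 2.68 FPKM without Hoxb. The posterior median was 0.0756 FPKM without Hoxa or Hoxb, 0.123 FPKM without Hoxc and 0.138 FPKM without Hoxd. With rescaled columns, the anterior median was 21.3 FPKM, the central median was 16.2 FPKM and the posterior median 0.145 FPKM. The order anterior, central, posterior held without Hoxa, without Hoxb, without Hoxd and with rescaled columns, but without Hoxc the central median was the higher. Among Hoxa genes with at least 1 FPKM, rho between paralog number and NC level was -0.54. For the other gene lists, the same 3 alternatives were added after seeing the data. Calls changed for Hibadh and Gata6 with rescaled columns, for Cdx4, Gsx2, Pdx1, Dcx, Th and Gata6 with a pseudocount of 0.1 FPKM, and for 0 genes after centring.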
